A study of Mus musculus with 6 samples.

Results

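A set of 9 receptors was followed across WT and Scd-1-/- CD8+ effector T cells (Teff): the chemokine receptors Ccr7, Ccr2, Ccr4, Ccr9, Cxcr3, Cxcr4, Cxcr6 and Cx3cr1, and the sphingosine 1-phosphate receptor S1pr1. They were taken by gene symbol, as receptors that guide T cells into, through and out of tissue, and all 9 had a row among the 34745 genes of each library. Scd-1, the enzyme stearoyl-CoA desaturase 1, makes monounsaturated fatty acids, and the comparison asked how its loss changed the transcripts of Teff. There were 3 WT and 3 Scd-1-/- libraries of bulk RNA. WT cells came from C57BL/6J mice and Scd-1-/- cells from B6.129-Scd1tm1Ntam/J mice, which carry a targeted Scd1 allele in the germline, so every cell type of the donor lacked the enzyme and not the T cells alone. All donors were males of the same age range. The groups differed in mouse line and source as well as in Scd1, and the effects of these cannot be told apart here. In both groups, splenic CD8+ T cells isolated with a kit were stimulated with anti-CD3 (5 µg/mL) and anti-CD28 (0.5 µg/mL) in the presence of IL-2 (100 U/mL) for 3 days, washed, and then cultured with IL-2 alone for 3 further days until harvest on day 6. The labels do not say whether the replicates came from separate mice, so the p-values measure only the spread between these samples, which may be technical.

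Chemokine receptors are seven-pass membrane proteins that couple mainly to the inhibitory G protein and steer a cell up a gradient of their ligand. Ccr7 and S1pr1 act in opposite directions at the lymph node: CCL19 and CCL21 draw Ccr7-bearing T cells in and hold them there, while sphingosine 1-phosphate in lymph draws S1pr1-bearing cells out. Effector CD8+ T cells are known for giving up Ccr7 and displaying receptors for chemokines of inflamed tissue, such as Cxcr3, Ccr2 and Cxcr6.

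Total gene counts ran from 14034479 to 15866216 per library. Scd1 counts checked the labels: 4272, 3074 and 3761 in WT replicates 1 to 3 and 30, 36 and 20 in Scd-1-/- replicates 1 to 3. Markers of CD8+ T cells summed to 2759 to 3360 CPM (counts scaled to a common library total) in WT and 2554 to 2981 in Scd-1-/- libraries, and Cd4 had at most 24 counts. Within that sum Cd8a was lower in every Scd-1-/- library (282, 215 and 259 CPM) than in every WT library (332, 366 and 362 CPM), while Cd8b1 overlapped (443, 299.7 and 319 against 489, 429.5 and 408 CPM). Libraries were set apart more by replicate number than by genotype: replicate 1 of both genotypes stood on one side of the first principal component, which held 42.3% of the variance, and the genotypes separated on the second, with 36.2%. Values are therefore also given with replicate number as a term in the model (the replicate block), and for replicates 2 and 3 alone, a choice made after seeing the data.

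Of the 9 receptors, 7 had a mean FPKM (reads per gene corrected for its length and for sequencing depth) of at least 1 and were tested among 9627 genes. In the comparison of all 6 libraries, Ccr4 alone passed the thresholds that the study used (an absolute log2 fold change of at least 1 and an unadjusted p below 0.001), against 0.738% of all genes tested. With the replicate block 3 passed, Ccr7, Ccr4 and Ccr2, against 1.91% of all genes. Ccr7 and Ccr4 were lower and Ccr2 was higher in Scd-1-/- Teff. The study itself reports lower Ccr7 and higher Ccr2 in Scd-1-/- Teff from its RNA-seq. Its methods name edgeR but not which of its tests, and name no FPKM minimum, so its calls can differ from those given here. At a Benjamini-Hochberg adjusted p below 0.05, edgeR's quasi-likelihood test called 0 of the 7 without the block, where it called 0.114% of all genes, although 4 of the 7 had an unadjusted p below 0.05, as did 10.1% of all genes. DESeq2 called 3 (Ccr7, Ccr2 and Ccr4), against 2.76% of all genes, and limma 0, against 0.177% with a pseudocount of 1 and 0.156% with 0.1. With the block edgeR called 4, Cxcr3 joining these 3, against 4.70% of all genes. The 3 libraries of one genotype lay wholly above the 3 of the other for 3 of the 7 receptors (Ccr7, Ccr2 and Ccr4), as they did for 16.0% of all genes tested.

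**Figure D1:**
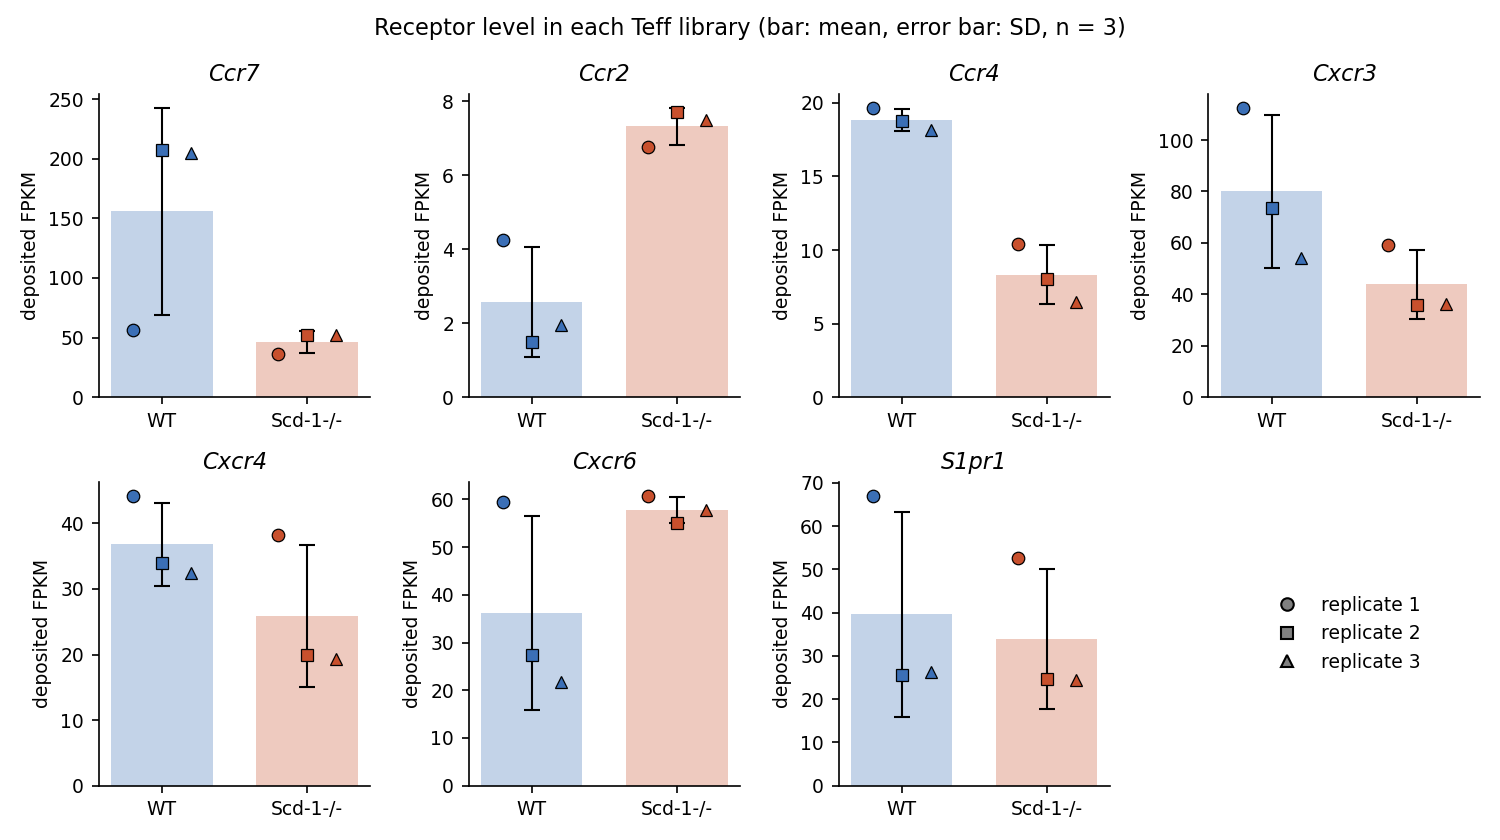
FPKM of the 7 tested receptors in each Teff library. Each panel plots deposited FPKM from 0 for WT (blue) and Scd-1-/- (orange), with a bar for the mean, an error bar for the SD (n = 3) and a symbol for each replicate number. The genotypes do not overlap for Ccr7, Ccr2 and Ccr4, while S1pr1 in replicate 1 is far above replicates 2 and 3 in both genotypes.

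Ccr7 (GRCm38 chromosome 11, 99144196 to 99155077, minus strand) had the largest negative difference of the set. Its counts were 1678, 5759 and 5749 in WT and 1103, 1449 and 1625 in Scd-1-/- replicates 1 to 3. In FPKM these were 55.9, 207 and 204 in WT and 35.8, 51.9 and 51.8 in Scd-1-/- Teff. All 3 Scd-1-/- libraries were below every WT library, but WT replicate 1 was much closer to them than to the other WT libraries. The mean FPKM was 3.35-fold lower in Scd-1-/- Teff. edgeR put the log2 fold change at -1.71 with a standard error of 0.45 (edgeR adjusted p = 0.24), short of the thresholds. With the replicate block it was -1.53 with a standard error of 0.25 (edgeR adjusted p = 0.019), past them, and in replicates 2 and 3 alone it was -1.95 (standard error 0.10). Leaving out WT replicate 1 gave -2.11 (edgeR adjusted p = 0.00759), past the thresholds, while leaving out any other library gave -1.81 to -1.44 (adjusted p 0.203 to 0.781), short of them.

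S1pr1 (chromosome 3, 115710433 to 115715072, minus strand), the receptor for exit into lymph, gave no detectable genotype difference. Its counts were 3089, 1093 and 1142 in WT and 2500, 1057 and 1182 in Scd-1-/- Teff. These made 66.9, 25.6 and 26.4 FPKM in WT and 52.7, 24.6 and 24.5 FPKM in Scd-1-/- Teff. Replicate 1 held 2.58 times the CPM of the mean of replicates 2 and 3 in WT and 2.15 times in Scd-1-/- Teff, so the replicate numbers differed far more than the genotypes. The log2 fold change was -0.21 with a 95% interval of -1.28 to 0.86 (edgeR adjusted p = 0.931). The replicate block narrowed the interval to -0.40 to 0.11 around -0.15 (edgeR adjusted p = 0.467), and replicates 2 and 3 alone gave -0.31 to 0.22. The direction was not stable: without WT replicate 1 the value was 0.43, and without Scd-1-/- replicate 1 it was -0.68. Klf2, which encodes a transcription factor known to drive S1pr1 and was chosen here after its values were seen, had 1974, 410 and 354 counts in WT and 1979, 667 and 806 in Scd-1-/- Teff. Klf2 too was highest in replicate 1, at 4.81 times the mean CPM of replicates 2 and 3 in WT and 2.59 times in Scd-1-/- Teff. For Klf2 edgeR gave a log2 fold change of 0.30 (standard error 0.69, edgeR adjusted p = 0.931) and 0.57 with the block (standard error 0.20, adjusted p = 0.151). Replicates 2 and 3 alone gave 0.89 for Klf2 (standard error 0.16, edgeR adjusted p = 0.0085), where 12.6% of all genes had an adjusted p below 0.05.

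Ccr2 (chromosome 9, 124101950 to 124113557, plus strand), the receptor for CCL2 that draws leukocytes to inflamed tissue, had the largest positive difference. Its counts were 908, 296 and 391 in WT and 1477, 1526 and 1672 in Scd-1-/- Teff. The FPKM values were 4.26, 1.50 and 1.96 in WT and 6.76, 7.70 and 7.50 in Scd-1-/- Teff. The Scd-1-/- libraries were close to one another and all above WT, with WT replicate 1 again nearest to them. The log2 fold change was 1.52 with a standard error of 0.37 (edgeR adjusted p = 0.206), and with the replicate block it was 1.67 (standard error 0.30, adjusted p = 0.0253), past the thresholds. Replicates 2 and 3 alone gave 2.17 with a standard error of 0.15. Without WT replicate 1, edgeR gave 2.12 (adjusted p = 0.00656), past the thresholds, and without any other library 1.25 to 1.57 (adjusted p 0.139 to 0.647), short of them. Of the 50-base words in the Ccr2 transcripts, 1.91% occur in another gene, and reads from these words could be assigned to more than 1 gene.

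Ccr4 (chromosome 9, 114490316 to 114504916, minus strand) is the receptor for CCL17 and CCL22, known from skin-homing T cells. Its counts were 831, 733 and 720 in WT and 453, 317 and 287 in Scd-1-/- Teff. In FPKM, WT libraries held 19.7, 18.7 and 18.2 and Scd-1-/- libraries 10.4, 8.06 and 6.49. It was the receptor whose WT libraries lay closest together, and every Scd-1-/- library was well below them. Ccr4 fell by 1.16 on the log2 scale with a standard error of 0.20 (edgeR adjusted p = 0.0911). With the block it fell by 1.18 (standard error 0.14, edgeR adjusted p = 0.00694). The call without the block needed nearly all libraries: the unadjusted p was above the 0.001 of the study when WT replicate 1, 2 or 3 or Scd-1-/- replicate 2 or 3 was left out, with log2 fold changes between -1.20 and -1.01. Leaving out Scd-1-/- replicate 1 gave -1.36 (edgeR adjusted p = 0.0153).

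Cxcr3 (chromosome X, 101731535 to 101734269, minus strand) binds the interferon-induced chemokines CXCL9 and CXCL10. Its counts were 2953, 1790 and 1328 in WT and 1600, 878 and 998 in Scd-1-/- Teff. In FPKM it stood at 112, 73.7 and 53.9 in WT and 59.4, 36.0 and 36.3 in Scd-1-/- Teff. The groups overlapped, because Scd-1-/- replicate 1 was above WT replicate 3, but within each replicate number Scd-1-/- was the lower, by 0.92, 1.02 and 0.51 on the log2 scale of CPM. The fold change was -0.85 (log2, standard error 0.32, edgeR adjusted p = 0.434). With the replicate block it was -0.82 (standard error 0.13) and the adjusted p was 0.0174 by edgeR, under the 0.05 level but short of the fold change that the study required.

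Cxcr6 (chromosome 9, 123806475 to 123811760, plus strand), the receptor for CXCL16 that marks tissue-resident and cytotoxic T cells, had a WT library at the level of Scd-1-/- Teff. Its counts were 1710, 726 and 584 in WT and 1787, 1473 and 1738 in Scd-1-/- Teff, or 59.6, 27.3 and 21.7 FPKM and 60.6, 55.2 and 57.9 FPKM. The Scd-1-/- libraries were nearly level, and WT replicate 1 stood among them while the other WT libraries were lower. The log2 difference between same-numbered libraries was 0.02 in replicate 1, 1.03 in replicate 2 and 1.48 in replicate 3. Over all libraries the log2 fold change was 0.69 (95% interval -0.15 to 1.53, edgeR adjusted p = 0.585) and with the block 0.84 (0.27 to 1.41, adjusted p = 0.101). Replicates 2 and 3 alone gave 1.24 (edgeR adjusted p = 0.00115), and leaving out WT replicate 1 gave 1.28 (edgeR adjusted p = 0.0236). Leaving out any other library gave 0.42 to 0.73 (edgeR adjusted p 0.475 to 0.997). Cxcr6 lies inside Fyco1 on the opposite strand and shares no exon base with it.

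Cxcr4 (chromosome 1, 128588199 to 128592293, minus strand), the receptor for CXCL12 that holds cells in bone marrow, had 1811, 1291 and 1250 counts in WT and 1614, 761 and 831 in Scd-1-/- Teff. In FPKM these were 44.1, 34.0 and 32.5 against 38.3, 19.9 and 19.3, and the groups overlapped through Scd-1-/- replicate 1. The log2 fold change was -0.49 (95% interval -1.17 to 0.19, edgeR adjusted p = 0.641), and -0.55 with the block (-0.86 to -0.23, adjusted p = 0.0636). Replicates 2 and 3 alone gave -0.72 (edgeR adjusted p = 0.00676).

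Both remaining receptors were at the edge of detection or under it. Cx3cr1 (chromosome 9, 119901616 to 120069879, minus strand), the fractalkine receptor of terminal effectors, had 3, 0 and 0 counts in WT and 5, 0 and 3 in Scd-1-/- Teff. These are too few for a fold change to be read. Ccr9 (chromosome 9, 123678439 to 123784330, plus strand), the gut-homing receptor for CCL25, had 0 counts in all 6 libraries. Such a count is compatible with as many as 3 reads, which is 0.189 to 0.214 CPM depending on the library, counting error only.

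**Figure D2:**
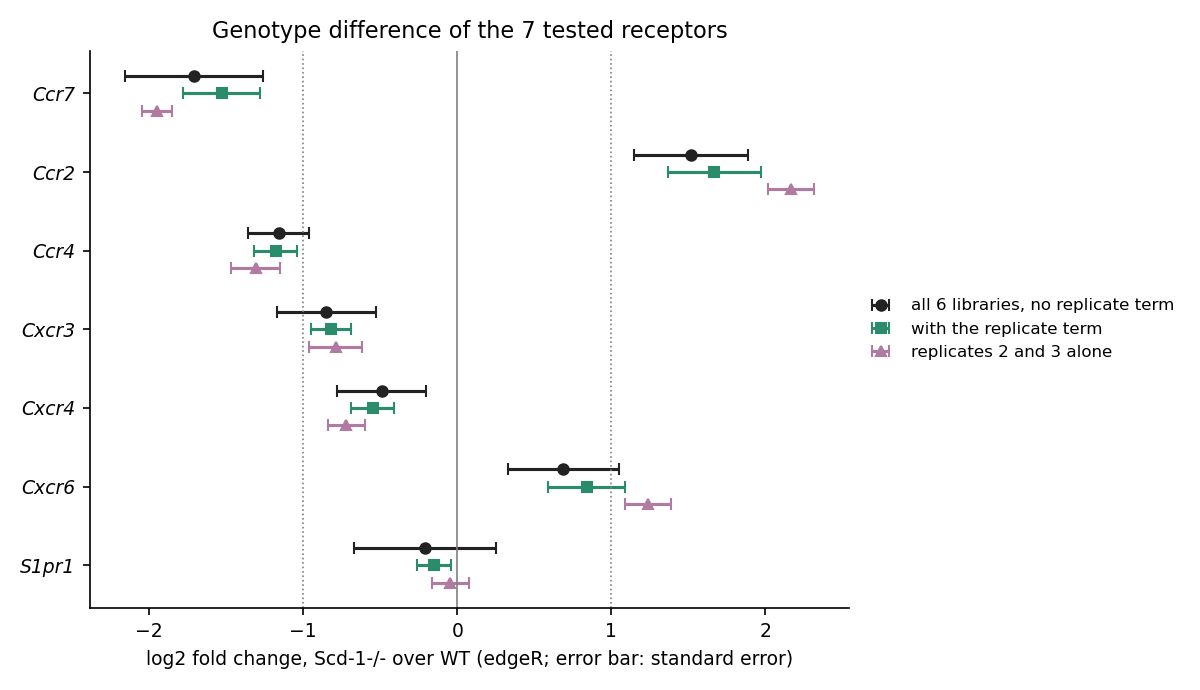
Genotype difference of the 7 tested receptors. The horizontal axis is the edgeR log2 fold change, Scd-1-/- over WT, with bars for the standard error and dotted lines at the fold change the study required. Ccr7 and Ccr2 lie farthest from 0 on opposite sides in each of the 3 fits, and S1pr1 lies nearest to 0 in each.

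In replicates 2 and 3 alone, 4 of the 7 passed the thresholds of the study (Ccr7, Ccr2, Ccr4 and Cxcr6), against 3.83% of all genes, and 6 had an adjusted p below 0.05 in edgeR, against 12.6% of all genes. In that subset S1pr1 was the receptor without a call. Same-numbered libraries show where replicate 1 differed. For Ccr7 the log2 difference was -0.65 in replicate 1, -1.98 in replicate 2 and -1.92 in replicate 3. For Ccr2 it was 0.66, 2.37 and 2.00 in the same order. Ccr4 varied least among these, with -0.92, -1.20 and -1.42. In Scd-1-/- Teff, Ccr2 and Cxcr6 were at 0.888 and 1.07 times the mean CPM of replicates 2 and 3 in replicate 1, against 2.46 and 2.43 times in WT. Whether the genotype difference itself varied between replicate numbers was not tested. With 1 pair of libraries per number, a separate difference for each number would leave no spread to test it against.

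**Figure D3:**
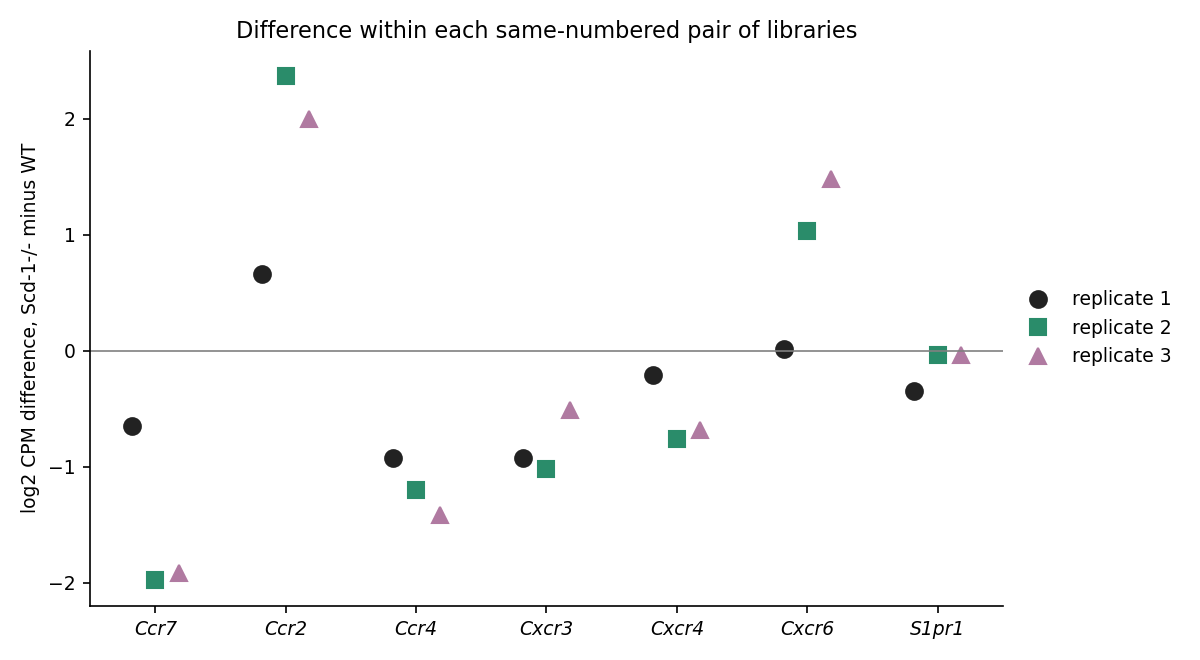
Log2 CPM difference, Scd-1-/- minus WT, within each same-numbered pair of libraries. Each symbol is 1 pair. The replicate 1 pair sits nearest to 0 for Ccr7, Ccr2, Ccr4, Cxcr4 and Cxcr6, at -0.65 for Ccr7 against -1.98 and -1.92 in the other pairs.

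The order of the receptors by level differed between the genotypes. In WT Teff, Ccr7 had the highest mean FPKM (156 ± 86.6, SD, n = 3), followed by Cxcr3 (80.0 ± 29.8), S1pr1 (39.6 ± 23.6), Cxcr4 (36.8 ± 6.33) and Cxcr6 (36.2 ± 20.4). The libraries of each of these overlapped with those of the next in order. Ccr4 (18.9 ± 0.754) and Ccr2 (2.57 ± 1.48) were below and apart. In Scd-1-/- Teff, Cxcr6 was first (57.9 ± 2.73) and did not overlap with Ccr7 (46.5 ± 9.26), and Ccr7, Cxcr3, S1pr1 and Cxcr4 overlapped in order. Cxcr6 was the most abundant of the 9 in all 3 Scd-1-/- libraries. In WT, Ccr7 was first in replicates 2 and 3, where it made 53.4% and 56.9% of the summed FPKM of the 9 receptors, and Cxcr3 was first in replicate 1.

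The level order of some receptors depended on the gene length. The deposited FPKM of Ccr2 was worked out with a length of 14043 bases, against 6760 bases of merged exons in GENCODE M21. For Cxcr4 the lengths were 2707 and 1808 bases, and for Ccr7, Cxcr3 and S1pr1 they were equal. Per kilobase of merged exons, Ccr2 in Scd-1-/- Teff was at 15.2 ± 1.04 CPM and Ccr4 at 7.51 ± 1.79 CPM (SD, n = 3 each) without overlap. In the deposited FPKM, Ccr4 (8.33 ± 1.99) and Ccr2 (7.32 ± 0.500) overlapped with Ccr4 the higher. In WT, Cxcr4 came after Ccr7 and Cxcr3 per kilobase of merged exons, at 55.2 ± 9.48 CPM, ahead of S1pr1. The length is the same in all libraries and does not enter the edgeR fold changes, but it decides which genes reach an FPKM minimum and enters fits on log2 FPKM: for Ccr2, limma gave 1.29 with a pseudocount of 1 and 1.61 with 0.1.

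**Figure D4:**
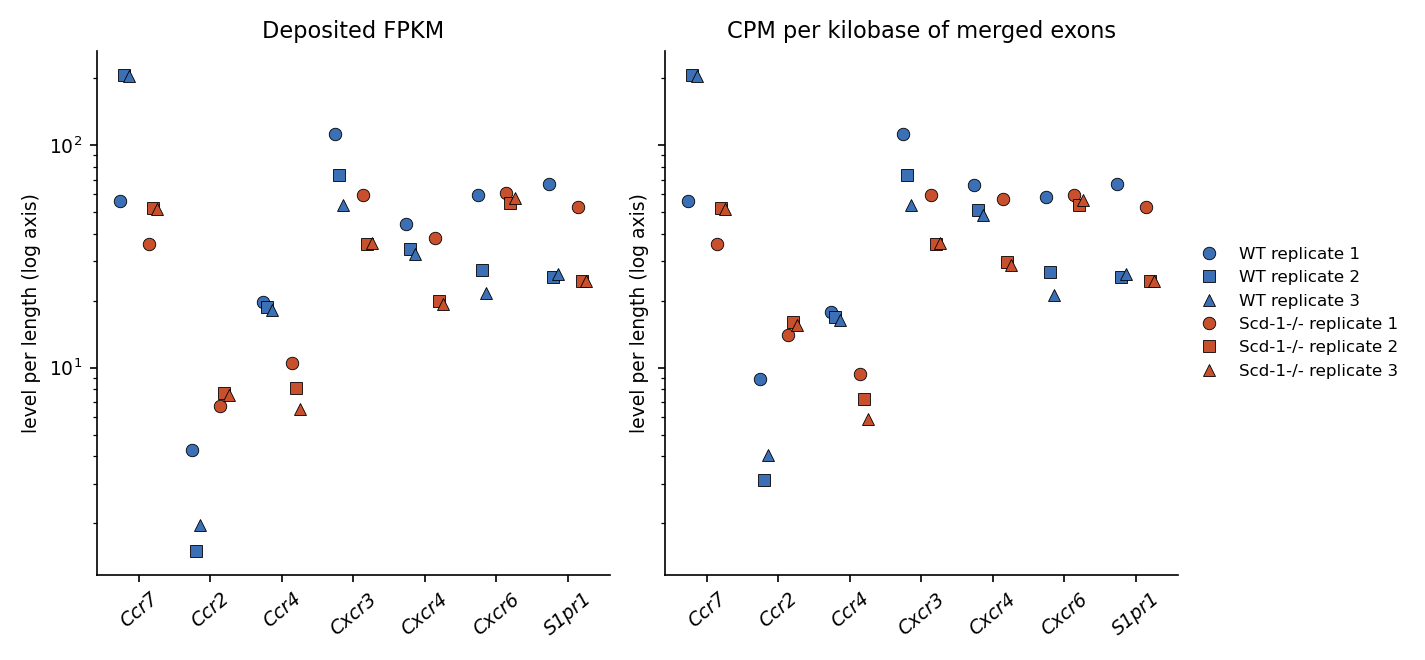
Levels of the 7 tested receptors per length in each library, on a log axis. The left panel uses the deposited FPKM and the right panel CPM per kilobase of merged exons, with WT in blue and Scd-1-/- in orange. Ccr2 of Scd-1-/- Teff lies beside Ccr4 on the left and above it on the right.

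Of the 9 receptors, 7 had a promoter window in the RefSeq table (GRCm38.p6), all but Ccr7 and S1pr1. Windows free of annotated exons are given for the receptor that passed the thresholds with all libraries and for the receptor that led in Scd-1-/- Teff, Ccr4 and Cxcr6. Ccr4 is chr9:114496563-114496794, minus strand, from 250 to 19 bases before the RefSeq start and inside the longer GENCODE span of the gene. Cxcr6 is chr9:123806227-123806474, plus strand, from 250 to 3 bases before the RefSeq start and within an intron of Fyco1. Capitals mark CACCC (a core bound by KLF factors) and CTTTGA (a core bound by TCF factors) on either strand.
Ccr4: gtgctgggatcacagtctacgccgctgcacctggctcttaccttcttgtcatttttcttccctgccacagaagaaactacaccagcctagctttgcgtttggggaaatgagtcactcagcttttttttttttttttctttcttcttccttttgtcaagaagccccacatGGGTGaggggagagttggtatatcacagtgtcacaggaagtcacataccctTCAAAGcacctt
Cxcr6: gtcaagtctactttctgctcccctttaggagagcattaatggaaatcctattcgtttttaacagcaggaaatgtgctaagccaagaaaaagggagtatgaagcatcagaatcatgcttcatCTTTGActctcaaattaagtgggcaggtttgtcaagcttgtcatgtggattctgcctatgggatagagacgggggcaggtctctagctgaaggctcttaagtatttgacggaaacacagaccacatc
CTTTGA occurred once in each of these windows, with its first base 30 bases before the start in Ccr4 and 129 in Cxcr6, and in none of the other 5 receptor windows of 250 bases. Of these 5, the Cx3cr1 window is exon throughout in GENCODE M21 and the Ccr2 window for 233 of its 250 bases. It occurred in 13.8% of the 32851 windows of that length in the table. CACCC occurred in the windows of Ccr4, Ccr9, Cxcr4 and Cx3cr1 and in 52.0% of all windows. The T-box core TCACACC, which occurred in 3.33% of all windows, was found in none of the 7. The motifs do not overlap in the windows shown. A match describes letters and is not a bound site.

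Other genes of the pathway were read from 7 lists of 79 genes, 44 of them with a mean FPKM of at least 1. Without the block, 1 passed the thresholds in each direction, as did 48 higher and 23 lower of the 9627 genes (0.738% together). Tcf7, a TCF factor that maintains naive and memory T cells, had 2228, 3680 and 3146 counts in WT and 392, 306 and 295 in Scd-1-/- Teff, and fell by 3.24 on the log2 scale (edgeR adjusted p = 0.00434). Eomes, a T-box factor of effector and memory CD8+ T cells, had 392, 419 and 413 counts in WT and 1039, 1464 and 1550 in Scd-1-/- Teff, and rose by 1.69 (edgeR adjusted p = 0.0359). The groups of both genes stood far apart. With the block, 4 of the 44 were higher and 3 lower at an adjusted p below 0.05, as were 254 and 198 of the 9627 genes (4.70% together).

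Among 15 other chemokine receptors 4 were tested, with a median log2 fold change of 0.63 against -0.001 over all genes, and none passed the thresholds or an adjusted p of 0.05, with or without the block. Cxcr5, the follicle-homing receptor, was under the FPKM minimum and was chosen here after its values were seen. It had 101, 30 and 35 counts in WT and 41, 2 and 14 in Scd-1-/- Teff, and tested on all 17192 genes with a count it had a log2 fold change of -1.59 (edgeR adjusted p = 0.608) and of -1.81 with the block (adjusted p = 0.0423).

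Among 8 other lipid receptors that position lymphocytes 5 were tested, with a median of 0.23. Ltb4r1, the leukotriene B4 receptor, had 1317, 740 and 545 counts in WT and 2084, 1323 and 1338 in Scd-1-/- Teff, and the fold change was 0.83 on the log2 scale (edgeR adjusted p = 0.453). With the block Ltb4r1 rose by 0.88 (standard error 0.14, edgeR adjusted p = 0.0165). S1pr3 was named after its values were seen. It had 2, 0 and 7 counts in WT and 24, 16 and 17 in Scd-1-/- Teff (edgeR adjusted p = 0.362 on all 17192 genes).

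The 14 ligands of the 9 receptors were nearly silent in these cultures, and 0 of them reached the FPKM minimum. The highest by deposited FPKM, Ccl25, had 18 to 32 counts per library. Of 8 genes of sphingosine 1-phosphate synthesis, breakdown and export 3 were tested and 0 called by either fit, with a median of 0.19. Sgpp1, the phosphatase that returns the ligand of S1pr1 to sphingosine, had the highest deposited FPKM of the list, and its log2 difference was 0.19 (standard error 0.24, edgeR adjusted p = 0.869).

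Downstream of the receptors, all 13 genes of G protein and migration signalling were tested and 0 passed the thresholds or an adjusted p of 0.05 in either fit, with a median of 0.11. Rac2, a haematopoietic GTPase of cell migration, had the highest deposited FPKM of the list, and its log2 difference was 0.12 (standard error 0.13, edgeR adjusted p = 0.827). Of 13 desensitization and RGS genes, which shut off signals of G protein-coupled receptors, 12 were tested and 0 were called without the block, with a median of 0.14. With the block 2 were higher and 2 lower at an adjusted p below 0.05 in edgeR, where 4.70% of all genes were called. Arrb1, which encodes the arrestin that uncouples and internalizes receptors, had 2351, 328 and 393 counts in WT and 1071, 123 and 93 in Scd-1-/- Teff. Replicate 1 held most of the Arrb1 counts in both genotypes, and Scd-1-/- was the lower in each pair. With the block Arrb1 fell by 1.55 (standard error 0.19, edgeR adjusted p = 0.00853), past the thresholds, against -1.30 (standard error 1.06, adjusted p = 0.765) without it. The receptor kinase Grk6 fell by 0.50 with the block (edgeR adjusted p = 0.0355). Rgs16 rose by 1.13 (edgeR adjusted p = 0.0345) and Rgs2 by 0.84 (edgeR adjusted p = 0.0453) with the block, and both were far higher in replicate 1 of either genotype.

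**Figure D5:**
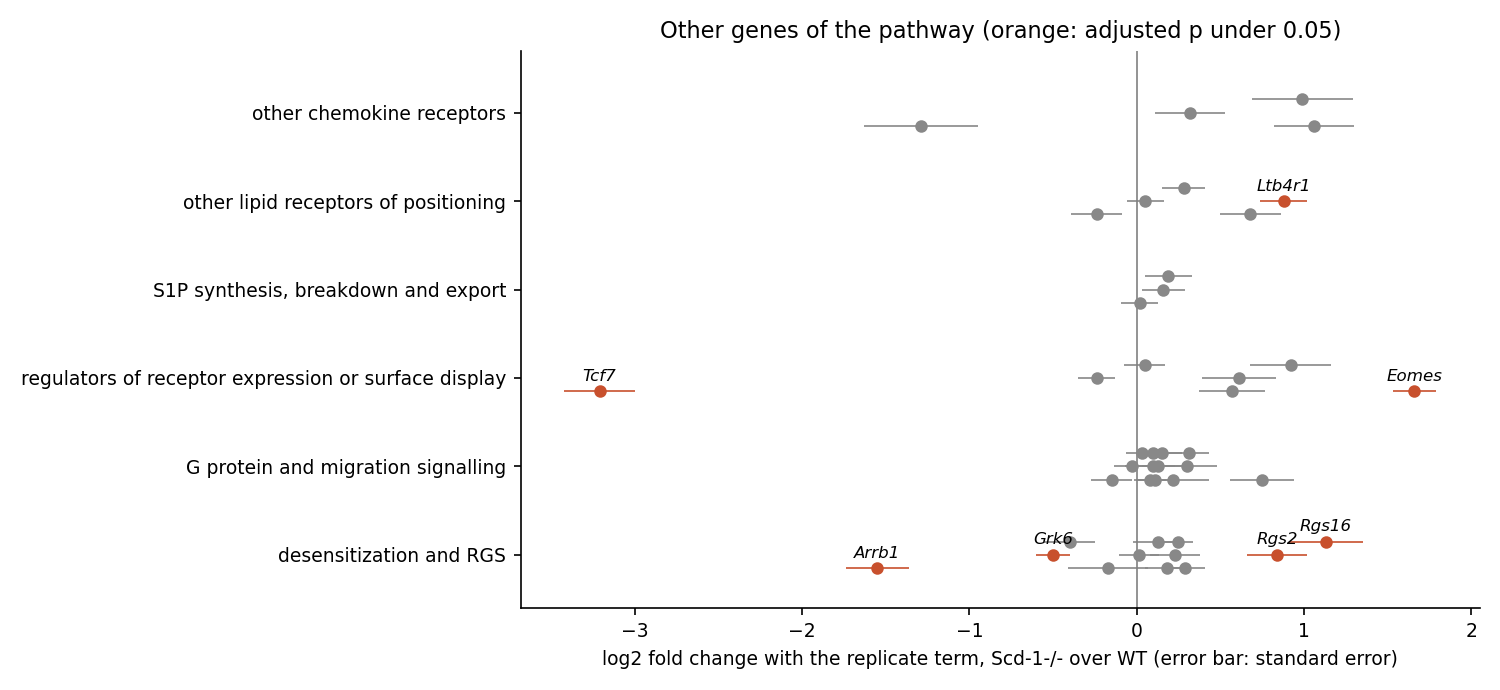
Log2 fold change with the replicate block of the tested genes of each pathway list, Scd-1-/- over WT. Each point is 1 gene with its standard error, and orange points have an adjusted p below 0.05 in edgeR. Tcf7 and Eomes lie farthest out, and no gene of the G protein and migration list is orange.

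Markers of other cell types moved with genotype beside the receptors. The 5 markers of natural killer cells summed to 11.7 to 23.6 CPM in WT and 44.6 to 166 CPM in Scd-1-/- libraries, with Ncr1 and Klra8 at no more than 5 counts. The 4 markers of gamma delta T cells summed to 87.7 to 118 CPM in WT and 184 to 383 CPM in Scd-1-/- libraries, with Sox13 at no more than 3 counts. Both sums were lowest in replicate 1 among the Scd-1-/- libraries. The 6 monocyte and macrophage markers summed to 0.499 to 1.78 CPM in WT and 3.59 to 7.13 CPM in Scd-1-/- libraries, with Adgre1 at 0 throughout. The 5 B cell markers summed to 19.8 to 22.5 CPM in WT and 6.59 to 16.8 CPM in Scd-1-/- libraries, nearly all of it Cd79b, with Ms4a1 and Pax5 at 0. The sums of the 4 CD4 T cell markers overlapped between the genotypes (43.3 to 84.3 and 56.6 to 79.5 CPM, nearly all of it Zbtb7b). Cd4 itself had 8, 24 and 12 counts in WT and 5, 2 and 1 in Scd-1-/- replicates 1 to 3. It was thus lower in every Scd-1-/- library, and Foxp3 and Cd40lg had at most 5 counts. The sums of the 5 dendritic cell markers (46.3 to 64.3 and 54.6 to 80.6 CPM, most of it Batf3 in WT) and of the 4 neutrophil markers (0 to 0.428 and 0 to 0.638 CPM) overlapped too. Within the dendritic cell list, Itgax had 14.4, 2.78 and 3.44 CPM in WT and 43.5, 13.2 and 9.90 CPM in Scd-1-/- replicates 1 to 3, higher in Scd-1-/- within each number. The part of these cells in the values of Ccr2, Ccr7, Cxcr6 and the other receptors was not tested. In bulk RNA, fewer cells of a type and less RNA per cell cannot be told apart.

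The genes whose profile over the 6 libraries was most like that of Ccr2 were Txk, Klra6 and Serpinb9, at root mean square differences of 0.162, 0.167 and 0.212 on the log2 scale, against a median of 0.99 over 9626 genes. Txk had 2.17, 0.892 and 0.933 FPKM in WT and 3.35, 3.48 and 3.09 FPKM in Scd-1-/- Teff, so its WT replicate 1 also stood nearer to the Scd-1-/- libraries. Those most like Ccr7 were Gbp2, Fzd7 and Gm28177, at 0.208, 0.247 and 0.265 against a median of 1.02. Gbp2, an interferon-induced GTPase, had 32.7, 77.7 and 81.8 FPKM in WT and 16.1, 23.9 and 25.7 FPKM in Scd-1-/- Teff. These are descriptions over 6 libraries that share the replicate structure given above.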

How the data were processed

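RNA of 3 WT and 3 Scd-1-/- Teff samples was sequenced. Per the labels, polyA RNA was taken with Trizol and built into libraries with a VAHTS kit, whereas the methods of the study name a stranded total RNA kit, so whether counting used strand is not known. The authors mapped reads with HISAT2 and counted them with StringTie 1.3.0 on GRCm38, and the deposited tables hold raw read counts and FPKM per gene. The deposited FPKM values are the CPM divided by a gene length in kilobases without further scaling, and that length differs from the merged exons of GENCODE M21 for most genes with several transcripts. The 9627 genes whose mean FPKM reached 1 were tested with edgeR 4.0.16 (TMM scaling, quasi-likelihood test of genotype, Benjamini-Hochberg adjustment over all of them); the scripts were first tested on simulated data. Receptors and genes below that minimum were read from the same test on all 17192 genes with a count. Alternatives were DESeq2 1.42.0, limma 3.58.1 on log2 FPKM with a pseudocount of 1 or 0.1, other scalings and minimums, single libraries left out, and replicate number as a block.

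The replicate numbers come from the labels, which do not say what a number marks. Deviations of same-numbered libraries from their group means correlated across genes at 0.583, 0.297 and 0.459 for replicates 1, 2 and 3. Deviations within a group cancel out, so a shared offset of replicate 1 alone also makes replicates 2 and 3 correlate. Scd-1-/- replicate 2 correlated more with WT replicate 3, at 0.357, than with WT replicate 2. The values set replicate 1 apart and do not show that replicates 2 and 3 are paired. The replicate block took the numbers as pairs, which the labels do not state. The receptors, lists and tests were chosen with earlier results of these data known. Named genes are all 9 receptors, list genes called with or without the block, otherwise the gene of a list with the highest mean FPKM, and the 3 genes nearest in profile to the receptors with the largest rise and fall; exceptions are marked. The gene with the highest FPKM of 1 list and some markers are not reported here.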

Additional observations from a re-analysis of the deposited data

How the results depend on the processing

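Of the 7 tested receptors, all but S1pr1 kept their direction in each alternative that tested them. The log2 fold change of S1pr1 was 0.43 without WT replicate 1, against -0.21 with all libraries, and -0.68 without Scd-1-/- replicate 1. Over the 6 fits that left out 1 library, the log2 fold changes of Ccr7 ran from -2.11 to -1.44, of Ccr2 from 1.25 to 2.12, of Ccr4 from -1.36 to -1.01, of Cxcr3 from -1.13 to -0.50, of Cxcr4 from -0.89 to -0.32 and of Cxcr6 from 0.42 to 1.28. The number of receptors past the thresholds of the study was 1 with all libraries and edgeR, 3 with the replicate block, 2 without an FPKM minimum (Ccr2 and Ccr4; 0.861% of all genes), 3 with DESeq2 (1.67%) and 4 in replicates 2 and 3 alone, and ran from 0 to 3 when 1 library was left out (0.260% to 1.69% of all genes). The number with an adjusted p below 0.05 was 0 with all libraries and edgeR, 4 with the replicate block, 1 without an FPKM minimum (Ccr4; 0.489%), 3 with DESeq2 and 6 in replicates 2 and 3 alone, and ran from 0 to 3 when 1 library was left out (0.0208% to 1.89%). The fit without WT replicate 1, with 3 receptors by either rule, called 1.49% and 1.38% of all genes. Of the 44 other genes of the pathway tested, 2 passed the thresholds, against 0.738% of all genes. In replicates 2 and 3 alone 8 of them did, against 3.83% of all genes. An FPKM minimum of 5 removed Ccr2 from the test. The replicate block changed no call of Cxcr4, Cxcr6 or S1pr1. The fit of replicates 2 and 3 alone rests on 2 libraries per genotype and was chosen after seeing the data. The cause of these shifts was not tested.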
